A study of Mus musculus with 18 samples.

Results

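Complex I, the NADH:ubiquinone oxidoreductase of mitochondria, was followed through the genes whose symbols start with Nduf. The rule was by name alone (case-sensitive, pseudogene symbols with -ps dropped) and used no measured value. The members were nevertheless chosen with earlier results of these data known. The rule found 51 genes among the 33235 in each table. They comprised 37 nuclear-encoded subunits of complex I (7 core and 30 accessory), 8 Ndufaf assembly factors, Ndufa4 and Ndufa4l2, which are named for complex I although the protein of the first is a subunit of complex IV, and 4 copies of subunit genes (Ndufb4b, Ndufb4c, Ndufs6b and Ndufb11b). The livers came from wild-type mice and were profiled by bulk RNA sequencing in 4 groups, GalNAc-Mdm2ASO on HFHC, GalNAc-conASO on HFHC, GalNAc-Mdm2ASO on CDAHFD and GalNAc-conASO on CDAHFD, here called Mdm2ASO and conASO. An antisense oligonucleotide (ASO) is a short strand that lowers a matching transcript, and GalNAc is a sugar taken up by a receptor of hepatocytes. HFHC is given only as this abbreviation in the sources used here, and CDAHFD is a high-fat diet that lacks choline and carries defined amino acids, given to mice to model steatohepatitis. Age, sex, dose and time on diet were not given in the sources used here. The comparison asked what the Mdm2 ASO changed on each diet.

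Complex I takes electrons from NADH, passes them through a flavin and a chain of iron-sulfur clusters to ubiquinone, and pumps protons across the inner mitochondrial membrane. It has a matrix arm, where the electrons travel, and a membrane arm, where the pumps sit; its central membrane subunits are encoded by mitochondrial DNA and all others by nuclear genes. Hepatocytes hold many mitochondria and use this complex to reoxidise the NADH made in fatty acid oxidation. Roles of single subunits given here are background, known mostly from human and bovine protein work.

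The values were read counts per gene scaled by 1 factor per library, called normalized counts here, and each diet's table was scaled separately; levels are therefore set against each other inside a diet. On HFHC, Mdm2ASO replicates 6 and 7 held identical values in every gene and were counted as 1 library, written 6-7. That left 3 Mdm2ASO and 4 conASO libraries on HFHC (17.8 to 18.8 M reads each) and 5 and 5 on CDAHFD (22.4 to 31.5 M reads). The labels do not say whether replicates were separate animals, so the p-values measure the spread between these libraries, which may be technical. Mdm2, the target, had 420.4, 362 and 304 normalized counts in Mdm2ASO livers on HFHC, against 907, 954, 963 and 956 in conASO livers. On CDAHFD it had 861, 566, 646, 564 and 598 in Mdm2ASO livers, against 1443, 1572, 1516, 1649.9 and 1644 in conASO livers. The groups did not overlap on either diet. The log2 fold change was -1.39 on HFHC (SE 0.11, exact two-sided permutation p = 0.0571, the smallest that 35 regroupings allow) and -1.29 on CDAHFD (SE 0.11, exact p = 0.00794, the smallest that 252 regroupings allow). In all that follows a fold change is Mdm2ASO over conASO on the log2(value + 0.5) scale, and a gene rose or fell where its limma-trend p, adjusted over all genes tested by the Benjamini-Hochberg method, was under 0.05.

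On HFHC the complex I genes were lower in Mdm2ASO livers as a group. Of the 50 Nduf genes tested, 32 fell, 1 rose and 17 did not pass; Ndufb11b had 0 reads in every library. Among all 17441 genes tested, 13.8% fell and 16.8% rose. Of the 37 subunits, 29 fell, 0 rose and 8 did not pass, and all 37 log2 fold changes were negative, from -0.71 to -0.12 with a median of -0.39, against a median of -0.01 over all genes tested. By role, 4 of 7 core subunits, 9 of 9 accessory subunits of the matrix arm, 15 of 20 of the membrane arm, the acyl carrier Ndufab1 and 2 of 8 Ndufaf assembly factors fell. The Mdm2ASO and conASO libraries did not overlap in 34 of the 50 Nduf genes with Mdm2ASO below (18.0% of all genes tested) and in 1 with Mdm2ASO above (20.7% of all genes tested). The count of subunits that fell was 29 with edgeR and 30 with DESeq2 on recovered reads. It was 18 with library size scaling and 9 when each library was centred on a list of hepatocyte genes, and 14 to 34 when 1 library was left out. The lowest of these came without Mdm2ASO replicate 9, with 18 without conASO replicate 2 or 4 and 19 without Mdm2ASO replicate 6-7. The median of the 37 subunits stayed negative in every one of these settings (-0.46 to -0.28).

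**Figure D1:**
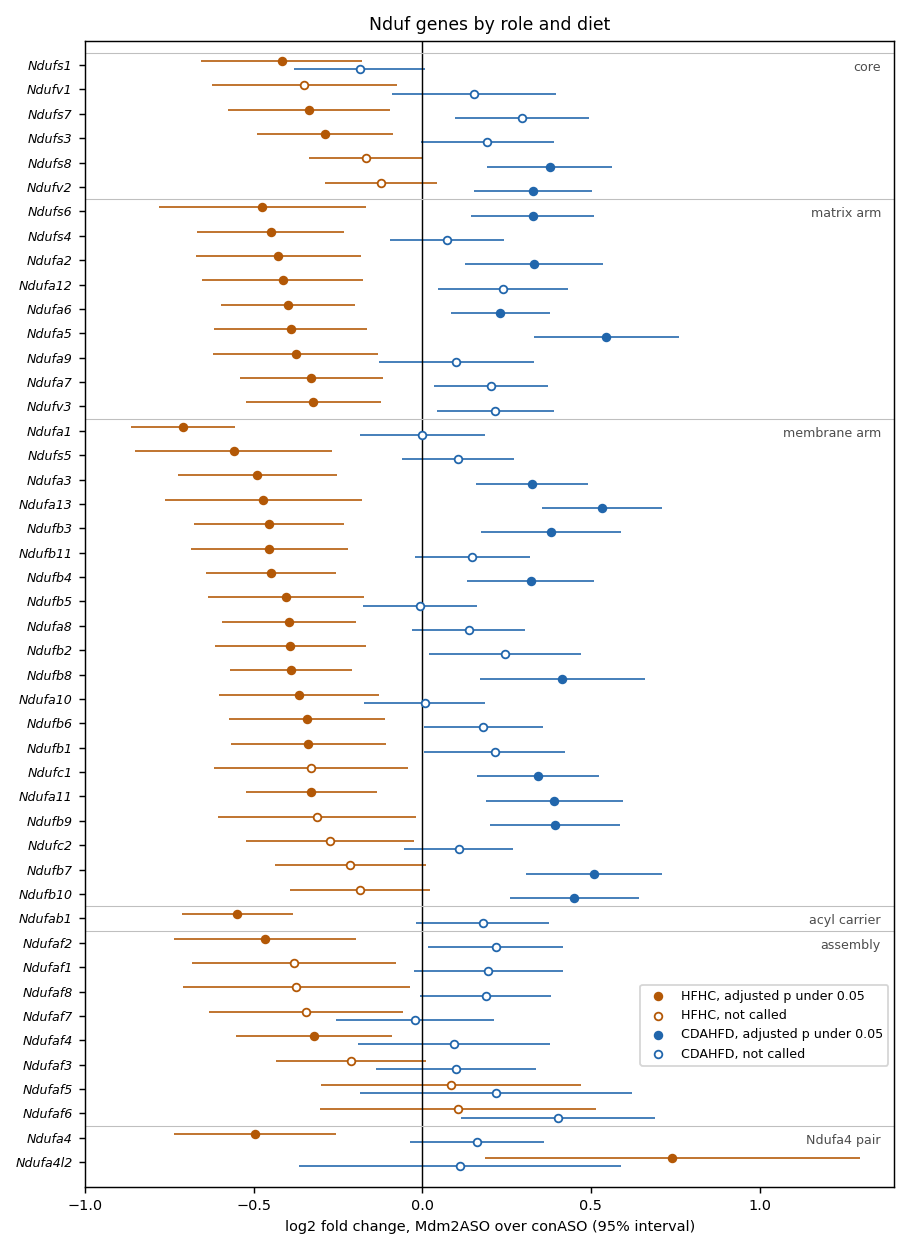
Log2 fold change of Nduf genes (rows, by role) for Mdm2ASO over conASO, with its 95% interval, on HFHC (orange) and CDAHFD (blue); filled points passed an adjusted p under 0.05. Every subunit point shown lies left of 0 on HFHC, and most lie right of it on CDAHFD; the 4 copies and 1 core subunit are left out.

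The core subunits carry the redox chain and the ubiquinone site. Ndufs1, which holds iron-sulfur clusters of the matrix arm, had 1344, 1739 and 1839.8 normalized counts in Mdm2ASO livers on HFHC (replicates 6-7, 9 and 10), against 2097, 2245, 2233 and 2119 in conASO livers (replicates 1, 2, 4 and 5). The groups did not overlap, and the log2 fold change was -0.42 (SE 0.11, adjusted p = 0.0155). Ndufs7, an iron-sulfur subunit near the end of that chain, had 927, 1124 and 1214 in Mdm2ASO livers, against 1237, 1336, 1514 and 1388 in conASO livers (log2 fold change -0.34, SE 0.11, adjusted p = 0.0394). Ndufs3, a core subunit without a cofactor, had 1560.5, 1653 and 1925 in Mdm2ASO livers, against 1955, 2113, 2246 and 2034 in conASO livers (log2 fold change -0.29, SE 0.09, adjusted p = 0.0357). For both, every Mdm2ASO library lay below every conASO library.

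Ndufv1, Ndufv2 and Ndufs8 were the 3 core subunits that did not pass on HFHC. Ndufv1, which binds the flavin and receives the electrons of NADH, had 1924, 2179 and 2725 in Mdm2ASO livers, against 2659, 3065, 3141 and 2656 in conASO livers (log2 fold change -0.35, SE 0.12, adjusted p = 0.0559). Ndufv2, its iron-sulfur partner, had 1653, 1875 and 1860.0 in Mdm2ASO livers, against 1900.3, 2036, 1999 and 1879 in conASO livers (log2 fold change -0.12, SE 0.07, adjusted p = 0.242). Ndufs8, an iron-sulfur subunit next to the ubiquinone site, had 1128, 1146 and 1273 in Mdm2ASO livers, against 1258, 1407, 1339 and 1309 in conASO livers (log2 fold change -0.17, SE 0.07, adjusted p = 0.12). The groups overlapped in Ndufv1 and Ndufs8, and in Ndufv2 they were apart by a narrow gap between 1875 and 1879.

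The accessory subunits surround this core, and the smallest p among all members on HFHC belonged to one of them. Ndufa1, a small protein of the membrane arm whose human gene is mutated in complex I deficiency, had 860.3, 951 and 953 normalized counts in Mdm2ASO livers, against 1469.9, 1485, 1548 and 1524 in conASO livers. The Mdm2ASO level was 61.1% of the conASO level, and each group was tight (log2 fold change -0.71, SE 0.07, adjusted p = 5.4e-05). Ndufab1, the mitochondrial acyl carrier protein, which also serves fatty acid and iron-sulfur cluster synthesis, had 1067, 1155 and 1224 in Mdm2ASO livers, against 1632, 1699, 1755 and 1629 in conASO livers (log2 fold change -0.55, SE 0.07, adjusted p = 0.000428). Ndufa3, of the membrane arm, had 1081, 1199 and 1209 in Mdm2ASO livers, against 1469.9, 1933, 1684 and 1481 in conASO livers (log2 fold change -0.49, SE 0.11, adjusted p = 0.00684). All 3 calls held in every alternative tried, with each library left out in turn included.

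Ndufb4, of the distal membrane arm, had 333, 356 and 308 in Mdm2ASO livers on HFHC, against 434, 446, 486 and 449 in conASO livers (log2 fold change -0.45, SE 0.09, adjusted p = 0.00378). Ndufb8, whose protein is often used to gauge assembled complex I, had 286, 276 and 284 in Mdm2ASO livers, against 349.9, 389.5, 371 and 369.8 in conASO livers (log2 fold change -0.39, SE 0.08, adjusted p = 0.00576). Neither gene's groups overlapped, and both calls were lost with hepatocyte list scaling (adjusted p = 0.0858 for Ndufb4 and 0.131 for Ndufb8). The 5 membrane arm subunits that did not pass were Ndufb7, Ndufb10, Ndufb9, Ndufc1 and Ndufc2, with log2 fold changes from -0.33 to -0.18. The 9 accessory subunits of the matrix arm lay between -0.47 (Ndufs6) and -0.32 (Ndufv3).

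Of the genes outside the complex itself, Ndufa4, the complex IV subunit, had 3628, 4583 and 4874 in Mdm2ASO livers on HFHC, against 6098, 6168, 6383 and 5793 in conASO livers (log2 fold change -0.50, SE 0.11, adjusted p = 0.00697). Its paralogue Ndufa4l2, a gene induced by hypoxia, was the 1 member that rose, with 88.0, 62.4 and 49.5 in Mdm2ASO livers, against 41.3, 43.8, 29.1 and 42.0 in conASO livers (log2 fold change 0.74, SE 0.25, adjusted p = 0.0477). This call was lost when any library but Mdm2ASO replicate 10 was left out (adjusted p from 0.0585 to 0.173), and with no filter on low values, quantile normalization or hepatocyte list scaling. Ndufaf2, a chaperone of late assembly, had 150.0, 164 and 154 in Mdm2ASO livers, against 199, 256, 210.3 and 199.9 in conASO livers (log2 fold change -0.47, SE 0.12, adjusted p = 0.0162). Ndufaf4, an early assembly factor of the ubiquinone module, had 339.9, 366 and 376 in Mdm2ASO livers, against 382, 491, 459.5 and 477 in conASO livers (log2 fold change -0.32, SE 0.10, adjusted p = 0.0415). Groups did not overlap in these 2 factors, and the other 6 ranged from -0.38 to 0.11 with none passing.

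Bulk RNA cannot tell fewer cells of a type from less RNA per cell, and cell type markers moved with the HFHC result. Of the listed markers, 9 of 12 of monocytes and neutrophils, 7 of 11 of macrophages, 6 of 12 of B, T and NK cells, 6 of 6 of red blood cells, 7 of 10 of endothelium and 6 of 9 of stellate cells rose, 6 of 8 of cholangiocytes fell, and 0 of 14 of hepatocytes passed. Summed over each list and set to the conASO mean of the diet, monocyte and neutrophil markers were at 282% to 332% in Mdm2ASO livers and at 69.8% to 123% in conASO livers, and macrophage markers at 301.5% to 347% in Mdm2ASO livers and at 76.2% to 124% in conASO livers. Lymphocyte markers were at 313% to 515% in Mdm2ASO livers and at 65.9% to 160% in conASO livers, red cell markers at 252% to 607% in Mdm2ASO livers and at 68.6% to 124% in conASO livers, endothelial markers at 157% to 179% in Mdm2ASO livers and at 92.6% to 107% in conASO livers, and stellate markers at 139% to 157% in Mdm2ASO livers and at 82.5% to 116% in conASO livers. In each of these 6 lists every Mdm2ASO library lay above every conASO library. Cholangiocyte markers were at 31.4% to 41.7% in Mdm2ASO livers and at 55.3% to 161% in conASO livers. Hepatocyte markers were at 100.4% to 145% in Mdm2ASO livers and at 90.04% to 111.5% in conASO livers. The part of these shifts in the complex I result was not tested. Medians over all genes also differed by transcript length. The share of genes that rose grew with length, while the share that fell was not ordered by it. With the genes split by exonic length into 4 bins of like size, the bin of shortest genes held 26 of the 37 subunits. Over all genes in that bin the median log2 fold change on HFHC was -0.06, and 13.5% fell and 11.1% rose. In the next bins by rising length the medians were -0.04 and 0.01, 16.2% and 13.8% fell, and 16.2% and 18.7% rose. In the bin of longest genes the median was 0.05, and 11.7% fell and 21.6% rose. The part of length was not tested either.

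On CDAHFD the complex I genes were higher in Mdm2ASO livers as a group. Of the 50 Nduf genes tested, 16 rose, 0 fell and 34 did not pass, and all 16 were complex I subunits. Among all 16803 genes tested, 6.12% rose and 6.86% fell. The 37 subunits had a median log2 fold change of 0.23, from -0.19 to 0.55, with 34 above 0, against a median of -0.0021 over all genes. By role, 2 of 7 core subunits, 4 of 9 accessory subunits of the matrix arm, 10 of 20 of the membrane arm and 0 of 8 Ndufaf factors rose, and Ndufab1 did not pass. Groups did not overlap in 13 of the 50 Nduf genes with Mdm2ASO above (4.95% of all genes tested) and in 0 with Mdm2ASO below (5.62%). The count of 16 subunits was 15 with edgeR and 17 with DESeq2 on recovered reads. It was 9 without conASO replicate 2 and 10 without Mdm2ASO replicate 8. Cell type markers passed less often here, apart from those of hepatocytes. Of hepatocyte markers 1 of 14 rose and 1 fell, 2 of 10 endothelial markers, 1 of 9 stellate markers and 1 of 12 B, T and NK markers rose, 1 of 11 macrophage markers fell, and none of the listed monocyte, neutrophil, red cell and cholangiocyte markers passed. Without passing, cholangiocyte markers had a median log2 fold change of 0.82 (6 of 8 above 0) and red cell markers 0.61 (5 of 5 above 0). Monocyte and neutrophil markers had a median of -0.18 (2 of 12 above 0). Over all listed markers, passing or not, the median was -0.28 for macrophages (2 of 11 above 0) and 0.51 for endothelium (10 of 10 above 0). Summed cholangiocyte markers were at 103% to 176% in Mdm2ASO livers and at 60.5% to 173% in conASO livers. Summed hepatocyte markers were at 80.4% to 99.3% in Mdm2ASO livers and at 79.6% to 115% in conASO livers, and summed endothelial markers at 114% to 172% in Mdm2ASO livers and at 88.1% to 118% in conASO livers. By exonic length, the bin of shortest genes held 27 of the 37 subunits and had a median log2 fold change of 0.03, with 6.14% of its genes higher and 4.12% lower, and the bin of longest genes had a median of -0.02, with 5.18% higher and 8.18% lower. The bins between had medians of -0.01 each, with 6.26% and 6.88% of their genes higher and 7.77% and 7.43% lower. The part of markers and of length in the result was not tested.

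Ndufa13, a membrane arm subunit also known as GRIM-19, had the smallest p on CDAHFD. It had 5385, 6006, 5589, 4654 and 4961 normalized counts in Mdm2ASO livers (replicates 6 to 10), against 4011, 3449, 3599, 3741 and 3533 in conASO livers (replicates 1 to 5). Every Mdm2ASO library lay above every conASO library (log2 fold change 0.53, SE 0.08, adjusted p = 0.00153). Ndufa5, of the matrix arm, had 3631, 4220.3, 3941, 2877 and 3498 in Mdm2ASO livers, against 2509, 2190.0, 2669.6, 2391 and 2613 in conASO livers, a level of 146% of conASO (log2 fold change 0.55, SE 0.10, adjusted p = 0.00366). Ndufb7, on the intermembrane space face of the membrane arm, had 3869, 4582, 3943, 3137 and 4046 in Mdm2ASO livers, against 2770.1, 2537, 2957, 2642 and 2761 in conASO livers (log2 fold change 0.51, SE 0.09, adjusted p = 0.00369). Ndufb10, on the same face, had 5002, 5308, 5269.6, 4063 and 4363 in Mdm2ASO livers, against 3573, 3586, 3511, 3681 and 3138 in conASO livers (log2 fold change 0.45, SE 0.09, adjusted p = 0.00572). The groups of these 3 genes did not overlap either. Ndufb9, a membrane arm subunit that binds the acyl carrier, had 3189, 3318, 3366, 2538 and 2822 in Mdm2ASO livers, against 2553, 2300.0, 2299.9, 2192 and 2204 in conASO livers (log2 fold change 0.39, SE 0.09, adjusted p = 0.0117). Here Mdm2ASO replicate 9 lay just under conASO replicate 1. The calls of these 5 genes held in every alternative tried.

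Of the core, Ndufs8 rose on CDAHFD, with 2527, 2928, 2284, 2239 and 2286 in Mdm2ASO livers, against 2071, 1786, 1853, 1812 and 1881 in conASO livers (log2 fold change 0.38, SE 0.09, adjusted p = 0.012). Ndufv2 also rose, with 3809.9, 4211, 3829, 3162 and 3437 in Mdm2ASO livers, against 2985, 2850.3, 3023, 2870.4 and 2893 in conASO livers (log2 fold change 0.33, SE 0.08, adjusted p = 0.0181). Both were among the 3 core subunits that had not passed on HFHC, and their groups did not overlap. Ndufs7 had 4524, 4865, 4499, 3427 and 3999 in Mdm2ASO livers, against 3647, 3293, 3418, 3564 and 3333 in conASO livers, and stood at the threshold (log2 fold change 0.30, SE 0.09, adjusted p = 0.0503). Ndufs3 (0.19, SE 0.09, adjusted p = 0.188) and Ndufv1 (0.15, SE 0.11, adjusted p = 0.408) did not pass. Ndufs1 was the 1 core subunit with a negative value, at 1933, 1853, 1874, 1788 and 1635 in Mdm2ASO livers, against 2213, 2347, 1774, 2196 and 1852 in conASO livers (log2 fold change -0.19, SE 0.09, adjusted p = 0.195). Its groups overlapped, as did those of the other core subunits that did not pass. Ndufa1, first on HFHC, averaged 2359 ± 278 in Mdm2ASO livers and 2349 ± 121 in conASO livers (SD, n = 5 each), with a 95% interval of the log2 fold change from -0.19 to 0.18. The remaining subunits that rose were Ndufs6, Ndufa2, Ndufa6, Ndufa3, Ndufb3, Ndufb4, Ndufb8, Ndufa11 and Ndufc1, with log2 fold changes between 0.23 and 0.42.

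**Figure D2:**
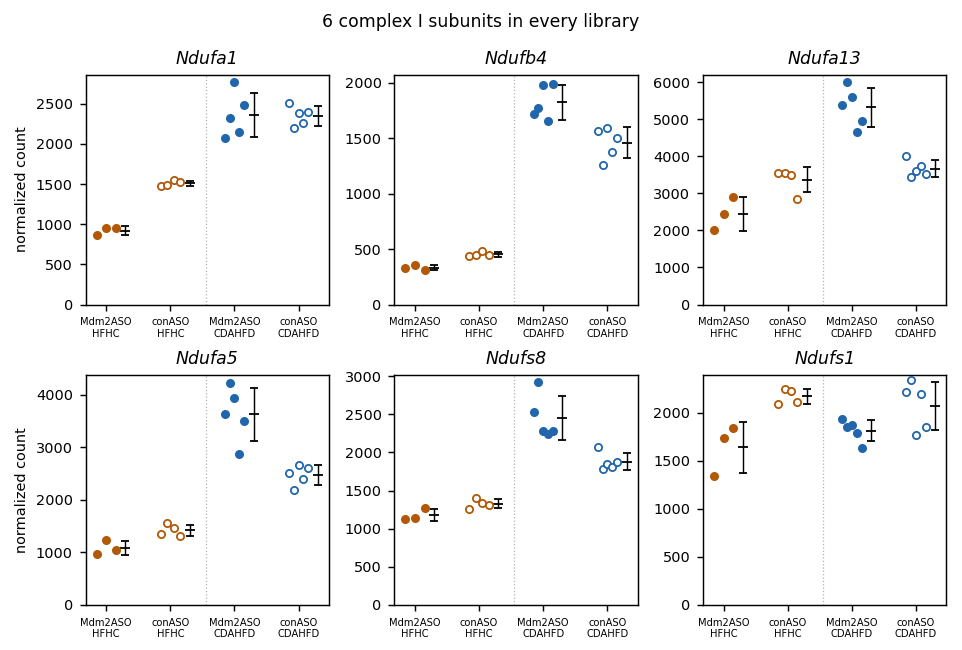
Normalized counts of 6 complex I subunits in every library (points; Mdm2ASO filled, conASO open; orange HFHC, blue CDAHFD), with bars for mean and SD; the diets were scaled separately. The Mdm2ASO libraries of Ndufa1 lie below conASO on HFHC and among conASO on CDAHFD, those of Ndufa13 and Ndufa5 lie above conASO on CDAHFD, and those of Ndufs1 lie below conASO on HFHC.

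The difference between the diets was tested as the CDAHFD effect minus the HFHC effect. It was above 0 in 38 of the 50 Nduf genes by adjusted p and below 0 in none (9.83% of the 16333 genes tested in both diets were called above, 13.6% below). Of the 37 subunits, 34 were called, and their median difference was 0.63 on the log2 scale against 0.01 over all genes. Ndufa13 had the largest difference of the subunits, 1.00 (SE 0.15, adjusted p = 8.93e-05), followed by Ndufa5 with 0.94 (SE 0.15, adjusted p = 0.000192). Ndufa3 differed by 0.81 (SE 0.13, adjusted p = 0.000129), Ndufb4 by 0.77 (SE 0.12, adjusted p = 0.000177) and Ndufa1 by 0.71 (SE 0.12, adjusted p = 0.000201). These 5 had the smallest p and kept their call in every alternative. Ndufs1 (0.23, SE 0.14, adjusted p = 0.266), Ndufv1 (0.50, SE 0.18, adjusted p = 0.0503) and Ndufa10 (0.37, SE 0.13, adjusted p = 0.0512) were the 3 subunits not called. Among the Ndufaf factors 3 of 8 were called, Ndufaf2 (0.68, SE 0.14, adjusted p = 0.00125), Ndufaf1 and Ndufaf8. Cell type markers moved in the same test. Called below 0 were 8 of 11 macrophage, 7 of 12 monocyte and neutrophil, 3 of 9 stellate, 2 of 12 B, T and NK, 1 of 10 endothelial and 1 of 5 red cell markers, and called above 0 were 6 of 8 cholangiocyte and 1 of 14 hepatocyte markers. Their part in the difference was not tested.

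Taking the calls of both diets, 10 subunits fell on HFHC and rose on CDAHFD, which is 34.5% of the 29 that fell and 62.5% of the 16 that rose (0.820% of the 16333 genes tested in both diets had this pattern). They were Ndufa2, Ndufa3, Ndufa5, Ndufa6, Ndufa11, Ndufa13, Ndufb3, Ndufb4, Ndufb8 and Ndufs6, none of them a core subunit, and the difference between diets was called for all 10. Only Ndufa3 kept both its HFHC and its CDAHFD call in every alternative tried. Another 19 fell on HFHC without passing on CDAHFD (10.9% of all genes), and the difference was called for 17 of these. Another 6 rose on CDAHFD without passing on HFHC (4.34% of all genes), and the difference was called for all 6. The difference uses the same values as the calls within each diet, so these counts are no separate evidence. Of all 37 subunits, 29 fell on HFHC and 16 rose on CDAHFD, which are the shares to set beside the overlap.

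**Figure D3:**
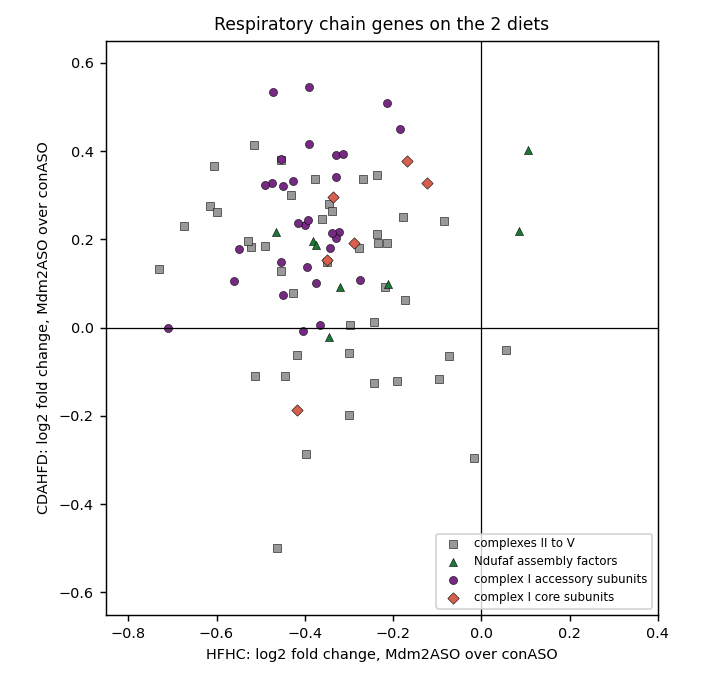
Log2 fold change on HFHC (x axis) against that on CDAHFD (y axis) for complex I core subunits (diamonds, 1 left out), accessory subunits (circles), Ndufaf factors (triangles) and listed genes of complexes II to V (squares). Most subunits lie in the upper left, negative on HFHC and positive on CDAHFD, with Ndufs1 the core subunit below 0 on both.

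The subunits varied together library by library, and libraries of 1 group differed. On HFHC, Mdm2ASO replicate 6-7 was the lowest of all 7 libraries in 32 of the 37 subunits, and replicate 10 was the highest of the 3 Mdm2ASO libraries in 31. Summed over the 37 subunits, the level was at 68.2%, 78.2% and 86.8% of the conASO mean in Mdm2ASO replicates 6-7, 9 and 10, against 95.7%, 104%, 105% and 94.8% in conASO replicates 1, 2, 4 and 5. On CDAHFD, Mdm2ASO replicate 7 was the highest of all 10 libraries in 25 subunits, and replicate 9 was the lowest Mdm2ASO library in 26. The sums there were at 120%, 132%, 125%, 105% and 113% in Mdm2ASO replicates 6 to 10, against 106%, 98.2%, 97.7%, 99.9% and 97.9% in conASO replicates 1 to 5. Mdm2ASO replicate 9 thus stood below conASO replicate 1, and the other Mdm2ASO libraries above all conASO libraries. On HFHC the order of the Mdm2ASO libraries was not particular to complex I. Summed genes of complexes II to V were at 67.4%, 76.4% and 88.0% of the conASO mean in Mdm2ASO replicates 6-7, 9 and 10. How often each library was lowest or highest over all genes was not counted.

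**Figure D4:**
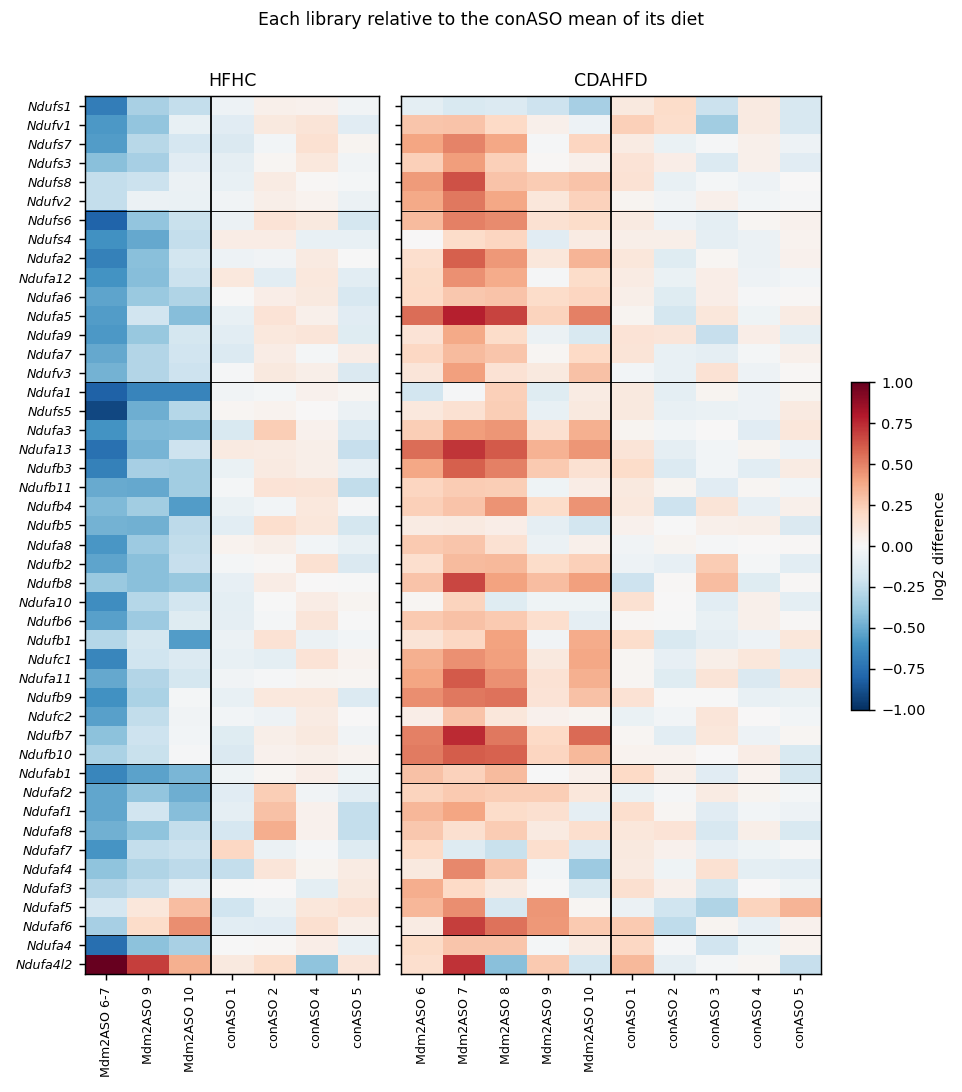
Log2 normalized count of the members in the plot of fold changes (rows, by role) in every library (columns) minus the conASO mean of its diet; the colour scale ends at 1 in either direction. Mdm2ASO columns on HFHC are blue in nearly all subunit rows, deepest in replicate 6-7, and those on CDAHFD are mostly red, deepest in replicate 7.

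The 7 complex I subunits encoded by mitochondrial DNA (ND1 to ND6 and ND4L in the files) were looked at beside the nuclear ones. On HFHC 5 of 7 fell, with a median log2 fold change of -0.96, among them ND6 (2411 ± 419 in Mdm2ASO and 4922 ± 907 in conASO livers; log2 fold change -1.02, SE 0.16, adjusted p = 0.00123) and ND5 (-1.04, SE 0.19, adjusted p = 0.00274). On CDAHFD 1 of 7 rose, ND3 (523 ± 149 in Mdm2ASO and 232 ± 70 in conASO livers; log2 fold change 1.16, SE 0.21, adjusted p = 0.00369), with a median of 0.35 over the 7. The difference between diets was called above 0 in 5 of 7. Their sum was at 51.0% to 59.3% of the conASO mean in Mdm2ASO livers on HFHC, against 92.0% to 117% in conASO livers. On CDAHFD it was at 83.2%, 86.4%, 161%, 104% and 175% in Mdm2ASO replicates 6 to 10, against 86.2% to 119% in conASO livers, so the library with the highest nuclear sum, replicate 7, was not high in this one. ND4 and ND4L overlap on the mitochondrial genome and ND6 lies on the strand opposite its neighbours, and the strand setting of the counting was not given in the sources used here.

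Genes of complexes II to V, taken as 1 list, had medians of the same signs. Of 43 listed, 23 fell and 0 rose on HFHC (median -0.34), and 10 rose and 1 fell on CDAHFD (median 0.18). Complex II was the exception on CDAHFD, where 1 of its 8 genes rose, the median was -0.03, and the sum was at 82.7% to 107% in Mdm2ASO livers and at 84.7% to 112% in conASO livers. On HFHC these included Cox7c of complex IV (2354 ± 171 in Mdm2ASO and 3759.8 ± 353 in conASO livers; -0.67, SE 0.10, adjusted p = 0.000639) and Uqcrq of complex III (-0.62, SE 0.11, adjusted p = 0.00258). On CDAHFD they included Cox5b (0.38, SE 0.08, adjusted p = 0.00572) and Uqcr11 (0.37, SE 0.09, adjusted p = 0.0177), while Uqcrc2, a core protein of complex III, fell (-0.50, SE 0.13, adjusted p = 0.0203). The difference between diets was called above 0 in 24 of 43, against 34 of 37 for the complex I subunits. Whether complex I stood apart from the other complexes was not tested. Genes of general mitochondrial function had negative medians on both diets (-0.24 on HFHC and -0.17 on CDAHFD). Of 14 listed, 6 fell on HFHC, while on CDAHFD 1 rose (Slc25a3, the phosphate carrier, 0.28, SE 0.09; named after its value was seen) and 3 fell, Cs, Chchd3 and Timm23. Cs encodes citrate synthase, an enzyme often used as a gauge of mitochondrial mass, but only its mRNA was read here. Cs mRNA fell on HFHC (1994 ± 113 in Mdm2ASO and 3148 ± 171 in conASO livers; -0.66, SE 0.08, adjusted p = 0.000171). It also fell on CDAHFD (3176 ± 229 in Mdm2ASO and 4225 ± 422 in conASO livers; -0.41, SE 0.09, adjusted p = 0.00742). Its difference between diets was not called (0.25, SE 0.12, adjusted p = 0.137).

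**Figure D5:**
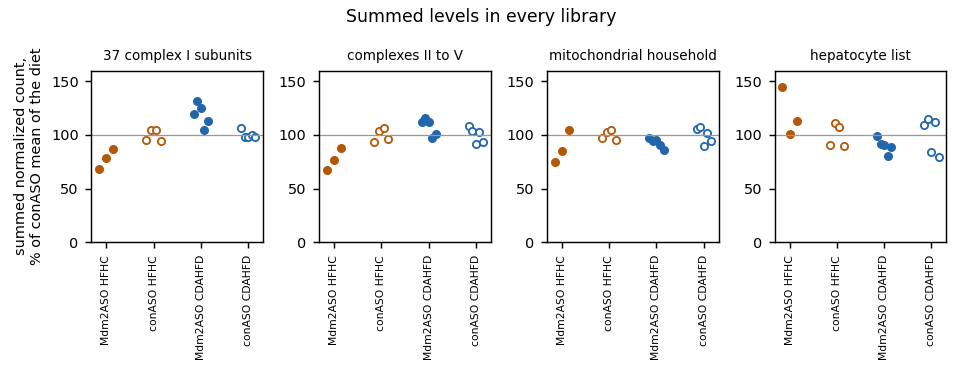
Summed normalized counts of 4 gene lists in every library, as a percentage of the conASO mean of the diet (filled Mdm2ASO, open conASO; orange HFHC, blue CDAHFD). The complex I sum lies between 68.2% and 86.8% in Mdm2ASO livers on HFHC and between 105% and 132% on CDAHFD. The sum of general mitochondrial genes on CDAHFD lies between 85.7% and 97.6% in Mdm2ASO livers, overlapping 89.6% to 107.6% in conASO livers. On HFHC it lies between 74.7% and 104.5% in Mdm2ASO livers and between 94.9% and 104.9% in conASO livers.

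Other assembly and supply genes were less uniform. Of 12 assembly factors of complex I with other names, 4 fell on HFHC, among them Aifm1 (-0.52, SE 0.09, adjusted p = 0.00193), Tmem126b (-0.42, SE 0.10) and Tmem126a (-0.29, SE 0.08), and, named after its value was seen, Tmem186 (-0.38, SE 0.12). On CDAHFD 1 rose, Dmac2, which acts in membrane arm assembly (1989 ± 260 in Mdm2ASO and 1272 ± 137 in conASO livers; 0.64, SE 0.10, adjusted p = 0.00179). Of 15 genes of iron-sulfur cluster synthesis, 5 fell on HFHC, among them Iscu, the scaffold (-0.67, SE 0.13, adjusted p = 0.00422), and on CDAHFD 2 rose, Fdxr, the ferredoxin reductase (0.51, SE 0.12, adjusted p = 0.0148), and Bola3 (0.24), and 1 fell. Of 15 listed regulators of respiratory genes, mostly transcription factors and coactivators, 2 fell on HFHC and 1 rose on CDAHFD. These counts were near the shares of all genes tested, of which 13.8% fell on HFHC and 6.12% rose on CDAHFD. The 1 that rose on CDAHFD was Esrra, the estrogen-related receptor alpha (2403 ± 207 in Mdm2ASO and 1697 ± 136 in conASO livers; 0.50, SE 0.08, adjusted p = 0.00186). Esrra did not pass on HFHC (0.16, SE 0.08, adjusted p = 0.171), and its difference between diets was called (0.34, adjusted p = 0.0428). Tfam, the packaging factor of mitochondrial DNA, fell on HFHC (-0.30, SE 0.09, adjusted p = 0.0239) and had -0.27 on CDAHFD (adjusted p = 0.132). Ppargc1a (0.29 on HFHC and -0.32 on CDAHFD), Nrf1 (0.29 and -0.05) and Gabpa (-0.10 and -0.11) did not pass on either diet, with adjusted p of at least 0.132.

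Promoters were set beside the values because the members moved together. The RefSeq table (GRCm38.p6, 250 bases before to 50 after each start) held 42 of the 51 members, 33 of them subunits, and 4 motifs were searched on both strands. The letters of the NRF1 motif, GCGCANGCG, were found in 10 of 42 members (23.8%) and 7.03% of 27025 genes, those of YY1, AAGATGGCG, in 6 (14.3%) and 1.64%, those of ETS factors such as GABP, CCGGAAG, in 6 (14.3%) and 9.93%, and those of estrogen-related receptors, TCAAGGTCA, in 0 and 0.466%. A palindromic NRF1 site, such as that of Ndufa11, matches on both strands, and each gene was counted once; no other motif overlapped these sites. Shown are the 160 bases just before the start, 5′ to 3′ on the gene's strand, with NRF1 matches on either strand in capitals. A further NRF1 match of Ndufb4, upstream, and a YY1 match of Ndufs6, downstream of the start, lie outside the stretch shown. Ndufb4 (chr16:37654369-37654528 (-)), Ndufa11 (chr17:56717602-56717761 (+)) and Ndufs6 (chr13:73328483-73328642 (-)) fell on HFHC, rose on CDAHFD and hold the NRF1 motif. None of these kept both calls in every alternative. Of the other subunits with these calls, Ndufa5 and Ndufa6 also hold the NRF1 motif. Ndufa3, Ndufa13, Ndufb3 and Ndufb8 do not, and Ndufa2 had no promoter sequence here. Ndufa13 (chr8:69902021-69902180 (-)), with the largest difference between diets among the 37 subunits, and Ndufa1 (chrX:37191239-37191398 (-)), with the smallest p on HFHC, hold none of the 4 motifs in their windows.
Ndufb4: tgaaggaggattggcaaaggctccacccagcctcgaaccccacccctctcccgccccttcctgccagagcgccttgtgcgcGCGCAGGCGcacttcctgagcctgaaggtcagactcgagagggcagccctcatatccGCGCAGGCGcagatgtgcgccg
Ndufa11: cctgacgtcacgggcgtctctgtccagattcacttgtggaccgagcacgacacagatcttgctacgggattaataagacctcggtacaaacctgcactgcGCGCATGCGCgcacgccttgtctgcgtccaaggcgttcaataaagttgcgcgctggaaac
Ndufs6: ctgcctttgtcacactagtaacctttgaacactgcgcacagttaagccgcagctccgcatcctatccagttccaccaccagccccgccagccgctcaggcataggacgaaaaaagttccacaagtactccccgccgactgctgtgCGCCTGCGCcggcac
Ndufa13: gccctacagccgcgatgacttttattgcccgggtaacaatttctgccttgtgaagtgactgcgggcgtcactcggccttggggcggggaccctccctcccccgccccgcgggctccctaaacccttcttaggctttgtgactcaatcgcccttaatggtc
Ndufa1: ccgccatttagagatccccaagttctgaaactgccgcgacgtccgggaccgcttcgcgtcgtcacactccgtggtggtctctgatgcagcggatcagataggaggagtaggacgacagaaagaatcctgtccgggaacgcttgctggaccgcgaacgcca
The 8 subunits with the NRF1 letters had a median log2 fold change of -0.40 on HFHC and 0.32 on CDAHFD, and the 25 without them -0.37 on HFHC and 0.21 on CDAHFD, given as a description.

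Set per kilobase of exonic length (GENCODE M21), levels of the 37 subunits spread widely. Ndufa2 of the matrix arm was the highest in Mdm2ASO livers on HFHC (2235 ± 379 normalized counts per kilobase, SD, n = 3) and in Mdm2ASO and conASO livers on CDAHFD (7754 ± 1075 and 6126 ± 379, n = 5 each). Ndufa1 was the highest in conASO livers on HFHC, at 3596 ± 85.1 (n = 4), where Ndufa2 had 2979 ± 133, and in Mdm2ASO livers on HFHC it had 2199 ± 126, within the spread of Ndufa2. Ndufb2 was listed lowest in all 4 groups, at 79.2 ± 8.25 in Mdm2ASO and 104 ± 8.81 in conASO livers on HFHC. Exonic length here joins all exons of all transcripts, 5628 bases for Ndufb2, and a gene with long rare transcripts is understated. The copies Ndufb4b, Ndufb4c and Ndufs6b had at most 14.7 normalized counts in any library (the highest in Ndufs6b), while Ndufb4 had at least 308 and Ndufs6 at least 843, and reads shared with the parent genes could be split in the counting.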

How the data were processed

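Mouse liver mRNA was sequenced from strand-specific libraries, per the labels' protocols. Per the submitters' processing notes, STAR 2.7.10b, featureCounts (Subread 2.0.3) and the GRCm39 build were used. The deposited signal values are gene counts divided by 1 factor per library by the authors, with each diet's table on its own. Whole reads could be recovered for 100% of values in every library within a tolerance of 0.001, and served edgeR and DESeq2 as alternatives. Of 18 samples, 17 libraries entered, since Mdm2ASO replicates 6 and 7 on HFHC had 0 differing values over 33235 genes.

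limma-trend (limma 3.58.1, R 4.3.3) was fitted to log2(value + 0.5) for genes that reached a value of 1 in a number of libraries no lower than the size of the smaller group, with the Benjamini-Hochberg adjusted p set at 0.05; the pseudocount makes fold changes of low genes too small. Within a diet only its groups entered, and the diets were set against each other by an interaction term in 1 fit of all 4 groups. The number of libraries, 3 to 5 in a group, limits the precision. The fits were tested on simulated data. Every member may be named; full statistics are given for the core subunits, the 6 members of smallest p per diet and direction, the 5 of smallest p for the difference and called Ndufaf factors, and from other lists up to 3 called genes per list and diet, plus Ppargc1a, Esrra, Nrf1, Gabpa and Tfam. A few genes are counted but not reported by name here. The members and lists were chosen with earlier results of these data known. Alternatives were other pseudocounts (1 and 0.1), no filter, a mean of at least 10, quantile, library size and hepatocyte list scaling, edgeR 4.0.16, DESeq2 1.42.0, each library left out, replicates 6 and 7 kept as 2 samples, and a replicate block. Tables and figures were made with Python 3.11.15, pandas 2.3.3, numpy 2.4.6 and matplotlib 3.10.9. Exonic lengths were matched to 96.6% of genes by identifier. Gene coordinates on the authors' build were not used here.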

Additional observations from a re-analysis of the deposited data

Results flagged for a closer look

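The CDAHFD effect lay above the HFHC effect in 38 Nduf genes by the test of that difference, and the 5 of smallest p were Ndufa13 (1.00 on the log2 scale), Ndufa5 (0.94), Ndufa3 (0.81), Ndufb4 (0.77) and Ndufa1 (0.71). Single libraries also stood apart within the conASO group on HFHC, by the gap between the lowest library and its nearest neighbour relative to the range of the group. Ndufa13 had 2860.2 normalized counts in conASO replicate 5, and the nearest conASO library had 3486. Ndufa4l2 had 29.1 in conASO replicate 4, and the nearest had 41.3. Ndufb10 had 2450.5 in conASO replicate 1, and the nearest had 2768. These were 3 of 63 groups checked over 21 genes, and chance flags about 1 in 20.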

How the results depend on the processing

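The median log2 fold change of the 37 subunits kept its sign in every alternative, at -0.46 to -0.28 on HFHC, 0.21 to 0.35 on CDAHFD and 0.51 to 0.74 for the difference, and no result reversed. Counts depended on the scaling on HFHC, and the cause was not tested. With library size scaling 20 Nduf genes and 18 subunits fell, and 1460 of all genes. With hepatocyte list scaling 10 Nduf genes and 9 subunits fell, and 1185 of all genes. With quantile normalization 3725 of all genes fell. The count of Nduf genes that rose on HFHC was 0 with no filter, quantile normalization or hepatocyte list scaling. On CDAHFD 372 of all genes fell with hepatocyte list scaling. For the difference, 2440 of all genes were called above with quantile normalization and 963 with library size scaling, and 1308 below with hepatocyte list scaling. These scalings moved the median of all genes by -0.11 (quantile) and 0.10 (library size) on HFHC, by 0.12 (hepatocyte list) on CDAHFD, and by -0.12 (library size) and 0.10 (hepatocyte list) for the difference. The share of calls that were higher on HFHC was 40.0% with quantile normalization, 69.9% with library size scaling and 64.6% with hepatocyte list scaling, against 55.0% as reported, and on CDAHFD 77.0% with hepatocyte list scaling, against 47.1%. For the difference it was 55.4% with quantile normalization and 26.6% with library size scaling, against 41.9%.

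With 1 library left out, counts on HFHC ranged from 0 to 1 for Nduf genes that rose, from 16 to 36 for Nduf genes that fell, from 14 to 34 for subunits and from 1552 to 2331 for all genes that fell. On CDAHFD they ranged from 9 to 17 for Nduf genes and for subunits that rose, from 557 to 1090 for all genes that rose and from 675 to 1193 for all that fell. Of the 32 Nduf genes that fell on HFHC, 15 kept the call whichever library was left out and 7 kept it in every alternative; of the 16 that rose on CDAHFD, 9 and 9 did, and of the 38 differences, 32 and 26. With Mdm2ASO replicates 6 and 7 as 2 samples, 41 Nduf genes fell on HFHC.

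With the replicate block, 26 Nduf genes were called above 0 for the difference, 24 of them subunits, with a median of 0.54. Deviations of same-numbered libraries of the diets had correlations of -0.0659 to 0.105 (8 pairs, median 0.0756). Differently numbered ones had -0.239 to 0.188 (27 pairs, median -0.0307). The ranges overlap and each library enters several pairs, so whether same-numbered samples share more than a number cannot be told from them. The 3 copies tested had at most 14 reads in any library, too few to read a change from.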

Other observations

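The make-up of the subunit transcript pool also differed between the diets in the conASO livers, which can be read as each gene's share of the 37 subunits within a library and needs no scaling between tables. Ndufb4 held 1.62% of the pool in conASO livers on CDAHFD and 0.694% in conASO livers on HFHC, a ratio of 2.34. The ratio was 1.83 for Ndufs7 and 1.64 for Ndufc1. At the other end Ndufb2 held 0.284% on CDAHFD and 0.893% on HFHC, a ratio of 0.318, and the ratio was 0.588 for Ndufc2 and 0.593 for Ndufa9. These 6 genes were chosen after their values were seen, as the highest and lowest ratios of the 37 subunits. That their library ranges did not overlap follows in part from this choice. Ranges were apart in most of the 37 subunits, among them Ndufa2 (3.65% to 4.09% on CDAHFD and 2.43% to 2.74% on HFHC). They overlapped in the rest, among them Ndufa6 (4.61% to 5.28% on CDAHFD and 4.61% to 5.08% on HFHC). How often ranges were apart for genes other than these was not counted. Diet and anything else that separates the 2 tables cannot be told apart here.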
